A study of Mus musculus with 72 samples.

Results

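A group of 10 immediate early genes was followed through a series of mouse liver transcriptomes: Fos, Fosb, Jun, Junb and Jund, whose proteins pair to form the transcription factor AP-1, the zinc finger factors Egr1 and Klf6, the nuclear receptor Nr4a1, and the short-lived response genes Ier2 and Ier3. They were chosen by name as a gene family, and each symbol was matched to a single Ensembl identifier, which gave 10 of the 50307 genes with complete values in the count table. Immediate early genes are switched on within minutes of a stimulus from factors that already sit in the cell, chiefly SRF with its ternary complex partners, and CREB. Their mRNAs decay fast, so that a level reflects the last signals a tissue received. In liver they respond to growth factors, hormones such as glucagon, regeneration, inflammation and handling of the tissue.

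Livers of female and male mice of the strains C57BL/6J (B6) and DBA/2J (DBA) were sampled after 12 weeks of Western diet. The diet held isoleucine, an essential branched-chain amino acid, at the control level, at a low level or at a high level. All were killed after a fast of 16 h, so every group shares both the Western diet and the fast. The 72 libraries fall into 12 groups of 6, for B6 females, B6 males, DBA females and DBA males on each of the 3 diets. For the age at which the diets began, the series text gives 6 weeks and the treatment text of the samples 18 weeks. The age field of every sample reads 18 weeks, and the labels do not say whether it is the age at the start or at the end. The strain field of the B6 samples is spelled C56BL/6J. Libraries are numbered 1 to 6 within a group in the order of deposit, and the labels do not say whether each library is a separate animal. In bulk liver, fewer cells of a type and less RNA per cell cannot be told apart.

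Library totals lay between 12.959 and 51.1 expected counts in units of 1000000, with a median of 24.1. Levels are counts per 1000000 of the TMM-scaled library size (CPM), and differences are log2 fold changes with a standard error (SE) from edgeR's quasi-likelihood test over 14954 genes, with Benjamini-Hochberg adjustment and a threshold of 0.05. All 10 genes had enough counts to be tested. The summed level of 8 hepatocyte markers (Alb, Apoa1 and others) was between 65690 and 139800 CPM in every library. Markers of Kupffer cells, the resident macrophages of liver, and of infiltrating macrophages were detected in every group.

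RefSeq promoter sequences (GRCm38.p6) were found for 8 of the 10 genes, all but Egr1 and Ier2. The letters TGACG, the core of the element bound by CREB, occurred on either strand in the 250 bases before the start of 4 of these 8, against 17.75% of 32817 mouse promoters of that length. Those 4 are shown because Fos, Fosb and Nr4a1 are the genes with the largest fold changes described here and Junb is the remaining gene with a match. Each runs 5′ to 3′ on the strand of its gene and ends at the base before the start, with TGACG or its reverse complement CGTCA in capitals.
Fos, chr12:85473640-85473889, plus strand: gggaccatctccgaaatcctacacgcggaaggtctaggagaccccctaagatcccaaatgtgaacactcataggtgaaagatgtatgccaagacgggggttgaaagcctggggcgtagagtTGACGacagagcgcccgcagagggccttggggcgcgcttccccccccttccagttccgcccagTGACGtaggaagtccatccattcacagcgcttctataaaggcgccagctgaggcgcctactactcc
Fosb, chr7:19310046-19310295, minus strand: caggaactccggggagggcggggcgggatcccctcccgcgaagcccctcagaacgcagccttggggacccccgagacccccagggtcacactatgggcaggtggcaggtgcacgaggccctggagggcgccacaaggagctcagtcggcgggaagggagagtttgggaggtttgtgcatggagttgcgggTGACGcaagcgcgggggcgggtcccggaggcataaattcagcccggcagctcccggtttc
Nr4a1, chr15:101266596-101266845, plus strand: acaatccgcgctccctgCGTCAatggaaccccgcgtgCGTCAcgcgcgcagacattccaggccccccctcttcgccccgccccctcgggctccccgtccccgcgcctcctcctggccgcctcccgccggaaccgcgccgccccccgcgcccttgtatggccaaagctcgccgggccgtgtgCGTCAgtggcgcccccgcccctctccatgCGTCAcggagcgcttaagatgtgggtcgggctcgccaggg
Junb, chr8:84978749-84978998, minus strand: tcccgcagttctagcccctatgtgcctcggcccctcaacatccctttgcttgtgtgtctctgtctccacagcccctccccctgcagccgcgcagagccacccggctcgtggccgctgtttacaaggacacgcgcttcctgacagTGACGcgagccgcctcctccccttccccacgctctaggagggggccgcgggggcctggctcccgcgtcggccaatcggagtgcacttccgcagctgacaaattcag
Nr4a1 held 4 matches, which began 233, 213, 69 and 40 bases before the start, all in the reverse orientation. Fos held 2, at 129 and 66 bases before the start, Junb a single match at 106 and Fosb a single match at 60. The full palindrome TGACGTCA (1.55% of promoters), the AP-1 site TGANTCA (6.75%), the CArG box bound by SRF (1.47%) and the NR4A site AAAGGTCA (1.34%) were absent from all 8 windows. The letters GCGNGGGCG, an EGR site, occurred in Fosb and Nr4a1 (4.7% of promoters), in both overlapping a GC box, GGGCGG, which 6 of the 8 held (32.72%). Fos alone had TATAAA (12.37%), from 33 bases before the start. CCAAT was found in Jun, Junb, Klf6 and Ier3 (33.83%), and the E-box CACGTG in Klf6 (6.02%). The Jund window, chr8:70697489-70697738, lies upstream of the Ensembl start of Jund, which is at base 70698949, so nothing is said of the bases next to that start. A match is a description of the letters and shows no binding. Bases farther upstream were not searched, so an absence holds for these windows alone.

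Per kilobase of exon, the genes spanned a range from Jund to Fosb. The mean level over the 72 libraries was 6.20 CPM per kilobase for Jund and 6.01 for Ier2, followed by Jun (3.64), Egr1 (3.56), Junb (3.51), Klf6 (2.47), Nr4a1 (1.23), Ier3 (0.671), Fos (0.419) and Fosb (0.0336). Group means overlapped between each pair of neighbours in this order, except between Fos, with group means from 0.20004 to 0.846, and Fosb, with 0.00183 to 0.0903 CPM per kilobase. Fosb was therefore close to the limit of detection: it had 390 counts in all and none in 15 libraries, where a count of 0 allows up to 0.0965 to 0.206 CPM. Fos had 1779 counts in all and Ier3 1385, and the other 7 genes had between 7281 (Nr4a1) and 28299 (Egr1).

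**Figure D1:**
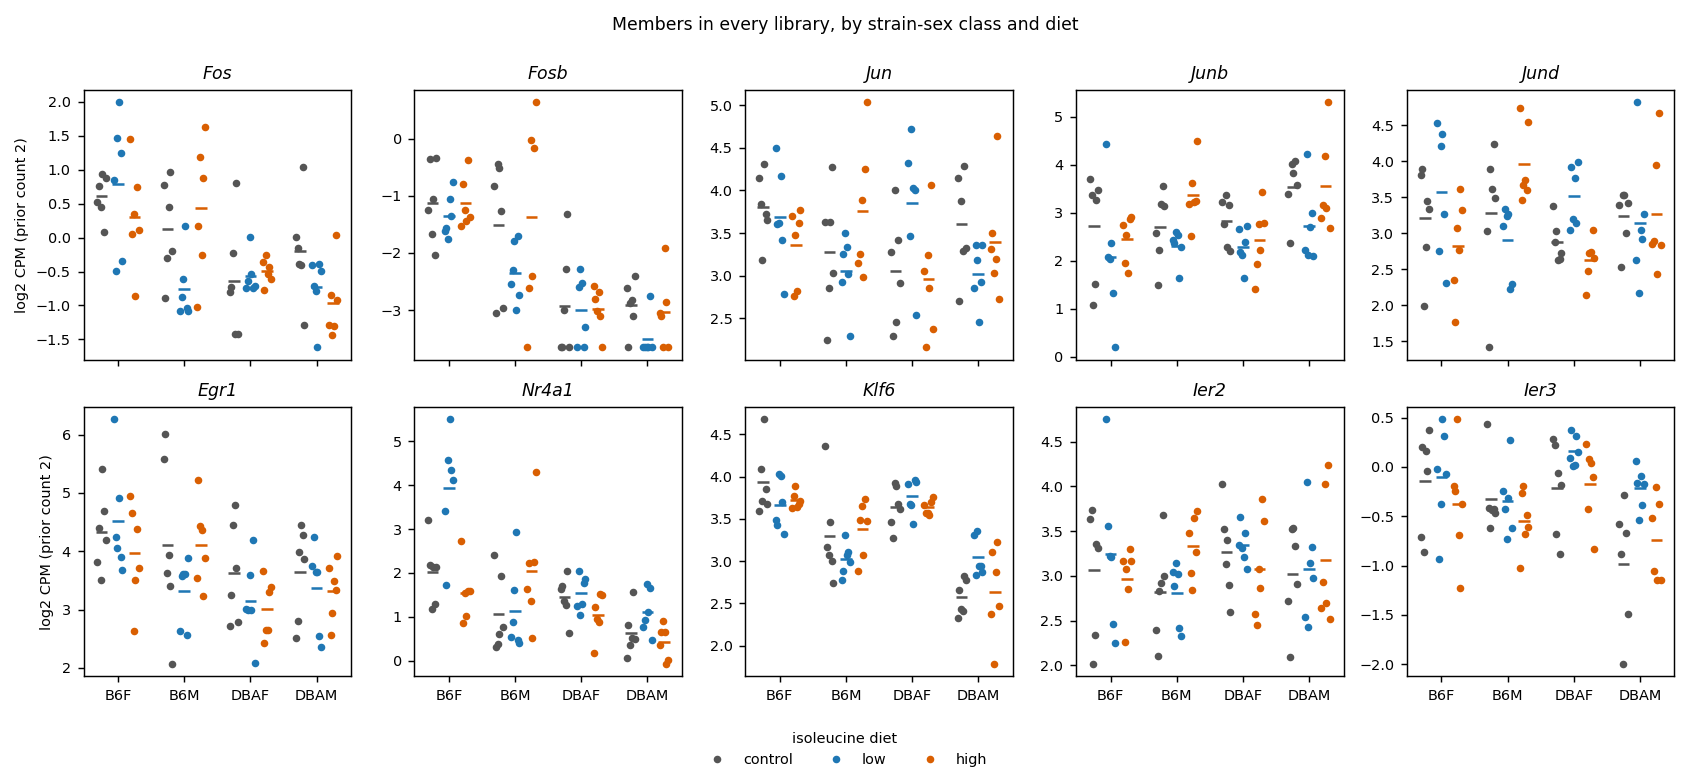
Level of each gene on a log2 CPM scale (prior count of 2, so that a count of 0 has a finite value) in the 72 libraries, by strain and sex (B6F, B6M, DBAF and DBAM for B6 and DBA females and males) and by diet in colour; each point is a library and each bar a group mean of log2 values. Nr4a1 is high in B6 females on low isoleucine, at 3.22 to 45.6 CPM, and Fosb is lower in DBA than in most B6 libraries.

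Most of these genes varied widely between libraries of the same group. The biological coefficient of variation of the fit, its estimate of spread beyond counting error, was 0.63 for Fosb, 0.54 for Egr1, Junb and Nr4a1, 0.44 for Jund and Fos, 0.41 for Jun and 0.38 for Ier2. The median over all genes tested was 0.185, and these 8 genes lay between the 89.0th and the 97.7th percentile. Klf6 and Ier3 had lower estimates, at 0.213 and 0.212 (60.6th and 59.9th percentile). The estimate falls with level over all genes and the percentiles are not adjusted for it, and Ier3 has a far lower level than Klf6. Egr1, which encodes a zinc finger factor bound to GC-rich sites, ranged from 4.10 to 64.0 CPM within the 6 B6 male control libraries. Junb ranged from 1.07 to 21.6 CPM among B6 females on low isoleucine and from 6.34 to 39.3 CPM among DBA males on high isoleucine. With such spread, the median standard error of a difference between 2 groups of 6 was 0.37 to 0.41 on the log2 scale.

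**Figure D2:**
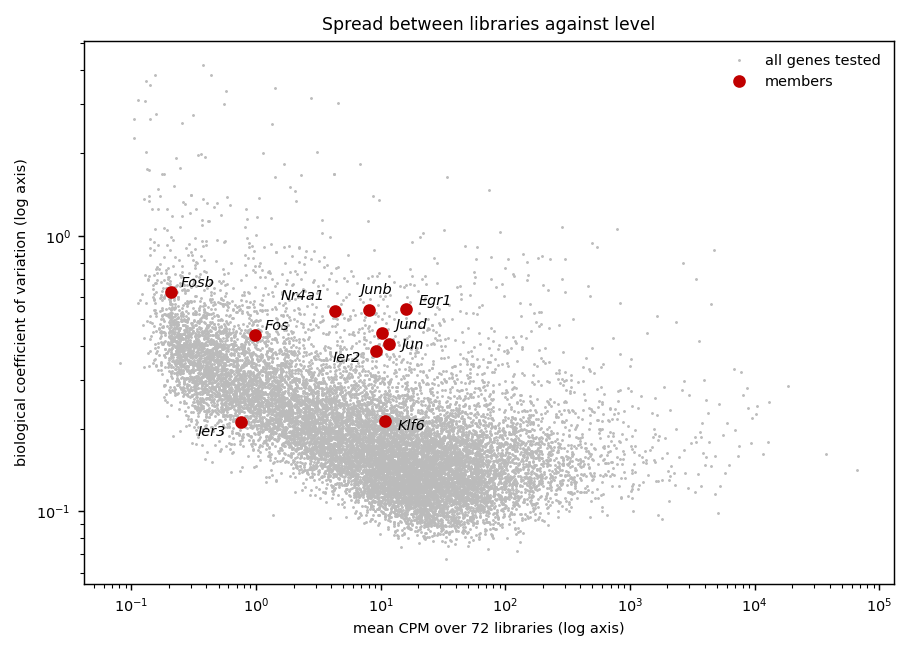
Biological coefficient of variation (log axis) against mean CPM over 72 libraries (log axis) for all genes tested (grey) and the 10 immediate early genes (red, named). Of the 10, 8 lie between 0.38 and 0.63, and Klf6 and Ier3 near 0.21; the grey cloud falls with level, so Fosb, Fos and Ier3 are to be read against genes of low level.

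Low isoleucine was first compared with control. Nr4a1, an orphan nuclear receptor that acts in liver on glucose production and inflammation, was the clearest of the 10. In B6 females it was at 9.11, 4.49, 2.20, 4.34, 2.36 and 4.31 CPM on the control diet and at 10.5, 3.22, 23.7, 45.6, 20.4 and 17.3 CPM on low isoleucine. Libraries 1 and 3 to 6 of the low group stood above every control library and library 2 lay among the controls, so the groups overlapped. The log2 fold change was 2.17 ± 0.45 (SE, edgeR adjusted p = 0.00042), with 5 of 6 libraries above the control mean. It was the only gene of the 10 called in B6 females, where 20.8% of all genes were called and 9.53% called higher. Leaving out each of the 12 libraries in turn gave values between 1.75 and 2.49.

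In the other classes Nr4a1 stayed low on both diets. Its range was 1.17 to 5.27 CPM in control and 1.25 to 7.52 CPM in low isoleucine B6 males, 1.48 to 4.07 against 1.97 to 4.08 CPM in DBA females, and 0.967 to 2.87 against 1.30 to 3.27 CPM in DBA males. Those ranges overlapped in each class, and none of the 10 genes passed the test in B6 males, DBA females or DBA males, where 5%, 11.8% and 17.7% of all genes were called. At an unadjusted p under 0.05 there were 4, 1 and 2 of the 10, against 2827, 3815 and 4492 of the 14954 genes tested. The effect in B6 females exceeded the mean effect of the other 3 classes by 1.95 ± 0.53 (adjusted p = 0.043, with 1.26% of all genes called in that test, 0.809% higher), a comparison added after the values were seen. That call was lost on leaving out any of 20 of the 48 libraries, with values from 1.53 to 2.27, and when libraries sharing a title number were fitted as a block (adjusted p = 0.226).

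As the mean of the 4 classes, 2 of the 10 genes passed the test, against 37.8% of all genes (17.8% higher and 20% lower). Nr4a1 rose by 0.71 ± 0.24 (adjusted p = 0.014), with 15 of 24 libraries above the control mean of their class. Behind this mean were changes of 2.17 and 0.12 in females and males of B6 and of 0.10 and 0.45 in those of DBA. Fosb, an AP-1 subunit of the Fos family, was lower at -1.06 ± 0.43 in log2 terms (adjusted p = 0.045), with 19 of 24 libraries below. The Fosb values behind this were small: B6 males had 0.0418 to 0.654 CPM on control and 0.0453 to 0.226 CPM on low isoleucine, and 5 of 6 DBA male libraries on low isoleucine had no count. Leaving out any of 27 of the 48 libraries ended the Fosb call, with values from -1.53 to -0.79. With the title number as a block neither gene was called (adjusted p = 0.113 for Nr4a1 and 0.221 for Fosb). The other 8 genes lay between -0.52 ± 0.23 for Junb (adjusted p = 0.067) and 0.27 ± 0.13 for Ier3 (adjusted p = 0.11). The median of the 10 was -0.04 and that of all genes -0.0035.

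In B6 males several of the genes had lower values on low isoleucine, and none passed the test. Fos, which cannot pair with itself and binds DNA with a Jun protein, was at 0.459 to 1.88 CPM on control and 0.392 to 1.04 CPM on low isoleucine (-1.10 ± 0.41, adjusted p = 0.11). Egr1 was at 4.10 to 64.0 and 5.84 to 14.7 CPM (-1.30 ± 0.47, adjusted p = 0.099). For Fos, Fosb, Junb, Jund, Egr1 and Klf6 all 6 libraries on low isoleucine lay below the mean of the controls, and the ranges of the groups overlapped for each. That control mean exceeded the median for Egr1 (25.7 against 13.8 CPM), Klf6 (10.5 against 8.61) and Fos (1.13 against 1.04). It did not for Fosb, Junb and Jund. The share of all genes for which the same holds was not counted. Of 7 Kupffer cell markers 4 were lower in the same comparison, and their summed level did not overlap between the groups, at 137.2 to 253.8 CPM on control and 57.9 to 136.7 CPM on low isoleucine. The part of these cells in the values of the 6 genes was not tested.

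**Figure D3:**
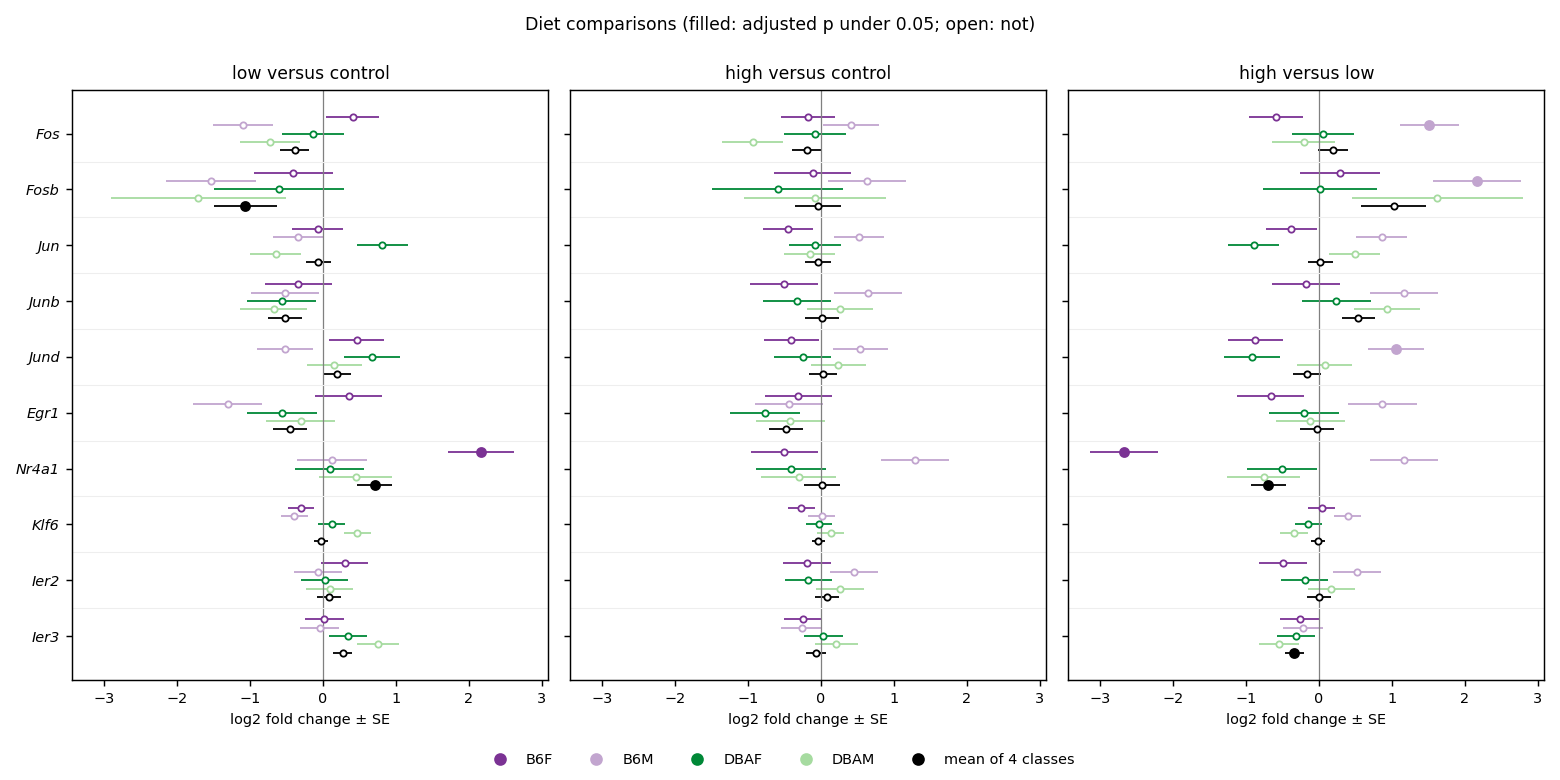
Log2 fold change of each gene between diets in the 4 strain and sex classes (colours) and as their mean (black), with bars of 1 SE; filled points passed the adjusted p threshold of 0.05. Nr4a1 stands at 2.17 for low against control and -2.67 for high against low in B6 females, and Fos, Fosb and Jund at 1.51, 2.17 and 1.06 for high against low in B6 males.

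Other immediate early genes were read from a list of 40, of which 35 were tested. As the mean of the 4 classes, 13 were higher and 2 lower on low isoleucine, with a median of 0.10, where 17.8% of all genes were higher and 20% lower. Btg1, an antiproliferative factor, rose by 0.54 ± 0.08, Fosl2, an AP-1 subunit, by 0.33 ± 0.09 and Ccn2, a matricellular protein, by 0.80 ± 0.21. Maff, a small Maf factor without an activation domain, fell by 0.86 ± 0.18 on the log2 scale. In B6 females 3 of the 35 were higher and 5 lower. Of 28 upstream kinases and factors tested, 7 were higher and 5 lower as the mean of the classes, among them Mrtfb, a coactivator of SRF (0.45 ± 0.06), Braf, a kinase of the ERK cascade (0.28 ± 0.06), the kinase gene Mapk3 (-0.35 ± 0.05) and Rps6ka1, a kinase downstream of ERK (-0.59 ± 0.10). Of 15 partners and inhibitors 2 were higher, Jdp2, a repressor of AP-1 (0.51 ± 0.15), and Cebpd (0.70 ± 0.24), and 3 were lower, among them Mafg (-0.34 ± 0.07) and Rxra (-0.16 ± 0.06). The counts of upstream genes and partners are to be read against the same 17.8% and 20% of all genes.

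Of a list of 13 glucocorticoid-responsive genes, 8 were higher and 2 lower on low isoleucine as the mean of the classes (median 0.58), among them Gadd45b (1.45 ± 0.20), Pdk4 (1.59 ± 0.22) and Fkbp5, a chaperone induced by the receptor (0.91 ± 0.13). In B6 females 5 were higher and 1 lower, and the summed level of the list was 906 to 2272 CPM on control and 2230 to 5010 CPM on low isoleucine. In B6 males the sums were 910 to 2334 CPM on control and 1594 to 2243 on low isoleucine. They were 1080 to 1943 and 1620 to 3832 CPM in DBA females. In DBA males they were 1056 to 1631 and 930 to 1596 CPM, with a lower median on low isoleucine (1069 against 1311). Counted gene by gene, however, 4 of the list were higher there and 2 lower. The median log2 fold change of the list was 0.82 in that class, and 0.82 for females of B6 too. Males of B6 had 3 genes higher and 0 lower (median 0.36), and DBA females 2 higher and 1 lower (0.55). The part of these genes in the Nr4a1 result was not tested. Macrophage markers were lower in the same B6 females: 3 of 7 Kupffer cell markers and 7 of 7 infiltrating macrophage markers fell. Kupffer cell markers summed to 210 to 571 CPM on control and 155 to 262 CPM on low isoleucine, and the summed level of the latter was 7.61 to 42.0 CPM on control against 4.55 to 7.06 CPM on low isoleucine. Of 7 markers of sinusoidal endothelium, which also expresses immediate early genes, 2 rose and none fell. Of 12 heat shock genes 4 fell and none rose in that comparison, with a median of -0.34.

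High isoleucine was then compared with control. None of the 10 genes passed the test in any class or as the mean of the classes, with edgeR's quasi-likelihood test. DESeq2 called none of them either. The share of all genes called was 0% and 4.51% in females and males of B6, 0.00669% and 0.0134% in those of DBA, and 0% for the mean of the classes. At an unadjusted p under 0.05 there were 0, 1, 0 and 1 of the 10 in the classes and 1 for the mean. Of the 14954 genes tested there were 846, 3230, 358 and 1261 in the classes and 684 for the mean. The effects for the mean of the classes ran from -0.48 ± 0.23 for Egr1 to 0.09 ± 0.16 for Ier2. In B6 males Nr4a1 was at 1.36 to 19.8 CPM on high isoleucine, of which the highest belonged to library 6, and its difference from control was 1.29 (adjusted p = 0.094). It passed without library 1 of the controls (1.67, adjusted p = 0.0468). None of the 35 other immediate early genes passed the test for the mean of the classes.

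High and low isoleucine were compared directly, with the low libraries shared with the comparisons above. In B6 females Nr4a1 was at 6.52, 1.73, 2.81, 1.95, 2.95 and 2.92 CPM on high isoleucine, against the values from 3.22 to 45.6 CPM on low isoleucine given above. All 6 libraries lay below the mean of the low group, and library 1 of the high group lay above library 2 of the low group. The log2 fold change was -2.67 ± 0.47 (adjusted p = 3.6e-05), and no other gene of the 10 was called in this class, against 19.1% of all genes (8.78% lower). Compared with the mean effect of the other classes, that of B6 females was lower by 2.64 ± 0.54 (log2 difference of -2.64, adjusted p = 0.0072, 0.95% of all genes called, 0.595% lower). Jund, the AP-1 subunit most steadily expressed in resting cells, was at 4.90 to 23.0 CPM on low and 3.32 to 12.2 CPM on high isoleucine in B6 females (-0.87, adjusted p = 0.10).

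In B6 males 3 of the AP-1 genes were higher on high than on low isoleucine. Fos was at 0.395, 0.467, 0.573, 1.04, 0.407 and 0.392 CPM on low isoleucine and at 0.413, 1.04, 2.21, 0.761, 1.75 and 3.004 CPM on high isoleucine. Of the 6 high libraries 5 exceeded the mean of the low group, and libraries 3, 5 and 6 stood above every library of it. The log2 fold change was 1.51 ± 0.41 (adjusted p = 0.0039). Fosb was at 0.0453 to 0.226 CPM on low isoleucine and at 0, 0.0833, 0.906, 0.109, 0.812 and 1.47 CPM on high isoleucine, so that the same 3 libraries were high and the other 3 lay within the range of the low group. Its log2 fold change was 2.17 ± 0.60 (adjusted p = 0.0050). With the title number as a block Fos was called (adjusted p = 0.036) and Fosb was not (adjusted p = 0.163).

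Jund was at 8.48, 10.01, 9.38, 9.55, 4.62 and 4.84 CPM in B6 males on low isoleucine and at 26.6, 10.9, 12.6, 13.3, 12.1 and 23.3 CPM on high isoleucine. The groups did not overlap, and the log2 fold change was 1.06 ± 0.38 (adjusted p = 0.033). These 3 genes were the ones called in B6 males, all higher, where 14.2% of all genes were called higher and 25.9% in either direction. At an unadjusted p under 0.05 there were 7 of the 10, against 5588 of the 14954 genes tested. The median of the 10 was 0.97 against 0.0173 for all genes. Jun (0.86, adjusted p = 0.059), Junb (1.17, adjusted p = 0.055) and Nr4a1 (1.17, adjusted p = 0.054) missed the threshold. For Nr4a1 the difference was 0.32 without library 6 of the high group, which held 19.8 CPM.

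Effects in B6 males were also set against the mean of the other 3 classes, as an added test in which 10.7% of all genes were called and 5.6% called higher. Fos differed by 1.76 ± 0.47 (adjusted p = 0.011), Jund by 1.63 ± 0.44 (adjusted p = 0.012) and Nr4a1 by 2.48 ± 0.55 (adjusted p = 0.0022), a value that includes the fall of Nr4a1 in B6 females. In DBA females and DBA males none of the 10 passed the test for high against low, where 14.9% and 14.3% of all genes were called. An unadjusted p under 0.05 was found for 2 and 1 of the 10, against 4369 and 4169 of the 14954 genes tested. Fos was at 0.517 to 0.924 CPM on low and 0.505 to 0.755 CPM on high isoleucine in DBA females, and at 0.246 to 0.687 and 0.291 to 0.952 CPM in DBA males, with overlap in both.

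Base composition and macrophage markers moved with the B6 male difference. The slope of log2 level on the GC content of the transcripts, in log2 units per 10 percentage points of GC, had a median of -0.0502 on low isoleucine (range -0.159 to 0.0229) and of 0.108 on high isoleucine (-0.0067 to 0.278). With this slope as a covariate, Jund (67.1% GC) was no longer called (adjusted p = 0.59), nor was its difference from the other classes (adjusted p = 0.38). Fos (adjusted p = 0.0135) and Fosb (adjusted p = 0.0191) passed. With the covariate, 4 of the 10 genes had an unadjusted p under 0.05. The Jund call was also lost with the title number as a block (adjusted p = 0.118) and without library 1 or 6 of the high group or library 5 or 6 of the low group. Of the Kupffer cell markers 6 of 7 were higher on high isoleucine, with summed levels of 57.9 to 137 CPM on low and 90.1 to 465.6 CPM on high isoleucine. All 7 infiltrating macrophage markers were higher, with sums of 4.16 to 6.97 against 5.76 to 26.5 CPM, as were 4 of 8 lymphocyte markers. The part of these cells in the Fos and Fosb result was not tested.

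Among the other immediate early genes 5 of 35 were higher and 3 lower on high isoleucine in B6 males, where 14.2% of all genes were higher. Chosen after their values were seen, Atf3, a stress-induced partner of Jun proteins (1.74 ± 0.48), and Egr2 (2.13 ± 0.60) were among the higher ones. Btg1 (-0.63 ± 0.17) and Ccn2 (-1.31 ± 0.40) were among the lower. Of 12 heat shock genes 5 fell in the same comparison and none rose.

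As the mean of the 4 classes, 2 of the 10 passed the test for high against low, against 43.6% of all genes (20.7% lower). Nr4a1 was lower by 0.69 ± 0.24 (log2 fold change of -0.69, adjusted p = 0.015), with 20 of 24 libraries below the low mean of their class. The classes did not share this fall: Nr4a1 changed by -2.67 and 1.17 in females and males of B6 and by -0.50 and -0.76 in those of DBA. Of these only the fall in B6 females passed the test alone. Without library 4 of B6 males on low isoleucine the adjusted p of Nr4a1 for the mean was 0.051. Ier3, which protects cells from death signals, had a log2 fold change of -0.33 ± 0.13 (adjusted p = 0.037), also with 20 of 24 libraries below. The Ier3 call was lost on leaving out any of 12 of the 48 libraries. By class the change was -0.26 and -0.22 in females and males of B6 and -0.32 and -0.54 in those of DBA, none of which passed the test alone. With the title number as a block neither gene was called (adjusted p = 0.0707 for Nr4a1 and 0.0824 for Ier3). In the same comparison 7 of 7 Kupffer cell and 6 of 7 infiltrating macrophage markers were higher, and 5 of 7 markers of sinusoidal endothelium and 8 of 13 glucocorticoid-responsive genes were lower. Their part in the Nr4a1 and Ier3 results was not tested.

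Interaction terms asked whether a diet effect differed between strains or between sexes. None of the 10 genes passed the test for low or high against control in DBA minus B6 or in males minus females, where 1.39%, 0.461%, 6.68% and 0% of all genes were called (low by strain, high by strain, low by sex, high by sex). At an unadjusted p under 0.05 there were 2, 0, 2 and 0 of the 10, against 2177, 1886, 3192 and 1003 of the 14954 genes tested. DESeq2 called 1 in the 4 terms together, Klf6 by strain on low isoleucine (0.65, adjusted p = 0.033). In the edgeR fit Klf6, a zinc finger factor of the KLF family, came nearest: its low isoleucine effect was higher in DBA than in B6 by 0.64 (adjusted p = 0.055). For low isoleucine in males minus females the median of the 10 was -0.72 against 0.0033 for all genes, with 2 of the 10 above 0.

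Strain was compared next, on each diet. Fosb was lower in DBA on all 3. On the control diet, Fosb lay between 0.0418 and 0.707 CPM in the 12 B6 libraries (median 0.370 in females and 0.408 in males) and between 0 and 0.323 CPM in the 12 DBA libraries (medians of 0.0227 and 0.0593). All 12 DBA libraries were below the B6 mean of their sex, and the log2 fold change was -2.48 ± 0.50 (adjusted p = 2.9e-05). On low isoleucine the difference was -2.67 ± 0.62 (adjusted p = 0.00029) and on high isoleucine -3.08 ± 0.49 (adjusted p = 3.0e-07), again with 12 of 12 libraries below. In females on high isoleucine the strains did not overlap, with 0.265 to 0.694 CPM in B6 and 0 to 0.0878 CPM in DBA.

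Fos was lower in DBA as well. On the control diet its range was 0.977 to 1.84 CPM in B6 females, 0.459 to 1.88 in B6 males, 0.293 to 1.66 in DBA females and 0.332 to 1.98 in DBA males, and 10 of 12 DBA libraries were below the B6 mean of their sex (-0.72 ± 0.28, adjusted p = 0.029). That call was lost without any of 5 of the 24 libraries (B6 male control libraries 1 and 5, DBA female control libraries 4 and 6 and DBA male control library 6), with values from -0.97 to -0.62. The difference was -0.81 ± 0.29 on low isoleucine (adjusted p = 0.020, lost without library 4 of either B6 group), with 9 of 12 libraries below. Group means there were 1.99 CPM in B6 and 0.610 in DBA females, but 0.546 and 0.545 in males. On high isoleucine the difference was -1.35 ± 0.29 (adjusted p = 6.2e-05), with 12 of 12 libraries below.

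Klf6 was lower in DBA on the control diet by 0.58 ± 0.13 (log2 fold change of -0.58, adjusted p = 0.00017), with 12 of 12 libraries below. Counting all 10, 3 genes were called lower and none higher in DBA on the control diet, where 45.4% of all genes were called and 22.5% lower. On low isoleucine 3 were lower (Fos, Fosb and Nr4a1), against 44.5% of all genes called and 21.7% lower. On high isoleucine 5 were lower (these 3 with Egr1 and Klf6), against 50.4% called and 24.6% lower. Nr4a1 differed by -1.52 ± 0.33 on low isoleucine (adjusted p = 0.00012, 10 of 12 libraries below) and by -1.40 ± 0.34 on high isoleucine (adjusted p = 0.00050, 12 of 12). Its means on low isoleucine were 20.1 CPM in B6 and 2.93 in DBA females, but 2.69 and 2.19 in males. The B6 female libraries are those of the diet comparison above. Egr1 was at 6.09 to 37.0 CPM in B6 and 5.31 to 14.99 CPM in DBA libraries on high isoleucine (-0.98 ± 0.34, adjusted p = 0.012). Jun, Junb, Jund, Ier2 and Ier3 passed on no diet.

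Several other groups of genes were lower in DBA on the control diet too, and others were not. Of the 35 other immediate early genes 14 were lower and 2 higher (median -0.44), and all 12 heat shock genes were lower (median -0.97). Of the Kupffer cell markers 5 of 7 and of the infiltrating macrophage markers 6 of 7 were lower, the sum of the latter being 4.84 to 42.0 CPM in B6 and 2.22 to 7.05 CPM in DBA libraries. Of 8 lymphocyte markers 6 were lower and 1 higher, and 4 of 6 stellate cell and 4 of 5 cholangiocyte markers were lower. Of 4 erythroid markers 3 were higher and 1 lower. Of 8 hepatocyte markers 2 were higher and 1 lower, and of 7 markers of sinusoidal endothelium 1 was higher and 1 lower. The part of these cells and genes in the strain differences of Fos, Fosb and Klf6 was not tested.

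Klf6 was lower in males on all 3 diets. On the control diet it was at 12.0 to 25.6 CPM in B6 females and 6.62 to 20.5 in B6 males, and at 9.63 to 15.05 in DBA females and 4.96 to 7.02 in DBA males, the last pair without overlap. The log2 fold change of males against females was -0.83 ± 0.13 (adjusted p = 9.4e-07), with 11 of 12 male libraries below the female mean of their strain. On low isoleucine it was -0.69 ± 0.13 (adjusted p = 2.65e-05), and here neither strain overlapped: 9.89 to 16.2 against 6.76 to 9.85 CPM in B6, and 10.7 to 15.5 against 7.085 to 10.2 CPM in DBA. On high isoleucine it was -0.61 ± 0.13 (adjusted p = 0.00019), with 11 of 12 libraries below.

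**Figure D4:**
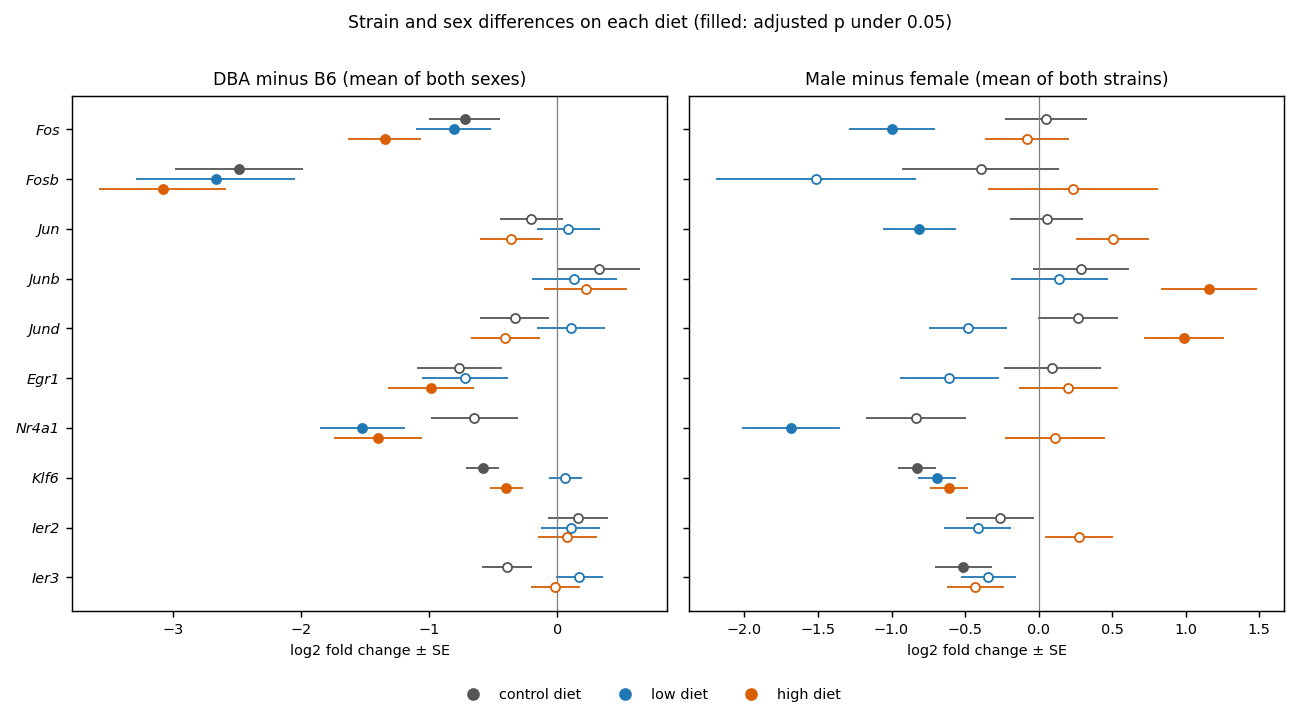
Log2 fold change of each gene between strains (DBA minus B6, mean of both sexes) and between sexes (male minus female, mean of both strains) on each of the 3 diets (colours), with bars of 1 SE; filled points passed the adjusted p threshold of 0.05. Fosb lies between -2.48 and -3.08 for strain on all 3 diets and Klf6 between -0.61 and -0.83 for sex.

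Other genes passed the test between sexes on 1 diet each. On the control diet 2 of the 10 were called, both lower in males, against 26.2% of all genes and 12.9% lower. The second was Ier3 (-0.51 ± 0.20, adjusted p = 0.043, 11 of 12 libraries below), whose call was lost without any of 16 of the 24 libraries. On low isoleucine 4 were lower in males (33.3% of all genes called, 16.6% lower): Klf6, Fos (-0.996 ± 0.29, adjusted p = 0.0061), Jun (-0.81 ± 0.25, adjusted p = 0.0084) and Nr4a1 (-1.68 ± 0.33, adjusted p = 7.3e-05). Jun, the partner of Fos and the target of the JNK kinases, was at 6.84 to 22.6 CPM in B6 females and 4.84 to 11.2 in B6 males, and at 5.74 to 26.2 in DBA females and 5.42 to 10.2 in DBA males. All 12 male libraries were below the female mean of their strain for Jun, with overlap in both strains. Nr4a1 had means of 20.1 CPM in B6 females and 2.69 in B6 males, but 2.93 and 2.19 in DBA. Fos had means of 1.99 and 0.546 CPM in B6, but 0.610 and 0.545 in DBA.

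On high isoleucine Junb and Jund were higher in males and Klf6 lower (28.9% of all genes called, 15.6% higher and 13.2% lower). Junb was at 3.28 to 7.46 CPM in B6 females against 5.63 to 22.6 in B6 males, and at 2.59 to 10.8 in DBA females against 6.34 to 39.3 in DBA males (1.16 ± 0.33, adjusted p = 0.0052, 11 of 12 libraries above). Jund differed by 0.99 ± 0.27 (adjusted p = 0.0041), also with 11 of 12 above. With the GC slope of the libraries as a covariate both passed (adjusted p = 0.0031 for Junb and 0.0015 for Jund). The title number block, which ended 15 gene results and left 19, is not given for them here. Some of the results it ended are among those not given gene by gene. Whether the sex difference of a gene itself changed between diets was tested only through the interaction terms for low and high against control, in which none of the 10 passed. On the control diet 10 of the 35 other immediate early genes were lower in males and none higher, and 7 of 7 Kupffer cell markers were lower. Summed Kupffer cell markers there were at 210 to 571 CPM in B6 females, 137 to 254 in B6 males, 141 to 257 in DBA females and 90.7 to 179 in DBA males. Also lower in males were 5 of 7 markers of sinusoidal endothelium, 4 of 6 of stellate cells, 5 of 8 of lymphocytes and 7 of the 13 glucocorticoid-responsive genes. The part of these cells and genes in the Klf6 and Ier3 differences was not tested.

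The genes were also compared by how they moved between libraries of the same group, after removing group means from log2 CPM. Of 45 pairs 12 had an adjusted p under 0.05 (permutation of libraries within groups, 100000 resamples, Benjamini-Hochberg over the 45), all of them positive, and the median Pearson r of the 45 was 0.16. Junb and Ier2 were the closest pair (r = 0.86, Spearman's rho = 0.81, 72 libraries), followed by Jund with Ier2 (r = 0.76, rho = 0.72) and Junb with Jund (r = 0.75, rho = 0.69). Each of these had a permutation p of 1e-05, the smallest these permutations can give, and an adjusted p of 7.5e-05. Without the 2 libraries farthest from the median of the first gene they were 0.83, 0.75 and 0.73.

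Other close pairs were Fos with Jun (r = 0.63, rho = 0.66, and 0.63 without the 2 farthest libraries) and Fos with Nr4a1 (r = 0.58, rho = 0.46, and 0.58), both with an adjusted p of 7.5e-05. Jun with Junb was at r = 0.57 (rho = 0.52, adjusted p = 7.5e-05, 0.60 without the 2 farthest). Fos with Fosb, 2 members of the Fos family, was at r = 0.44 (rho = 0.38, adjusted p = 0.012, 0.32 without the 2 farthest libraries). The remaining pairs past the threshold were Jun with Ier2 (0.45), Jun with Jund (0.43), Fos with Klf6 (0.41), Fosb with Jun (0.37) and Fos with Junb (0.36). Egr1 and Ier3 were in none of them. The highest r of Egr1 was 0.33, with Klf6 (adjusted p = 0.063), and that of Ier3 was 0.21, with Fos (adjusted p = 0.26).

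**Figure D5:**
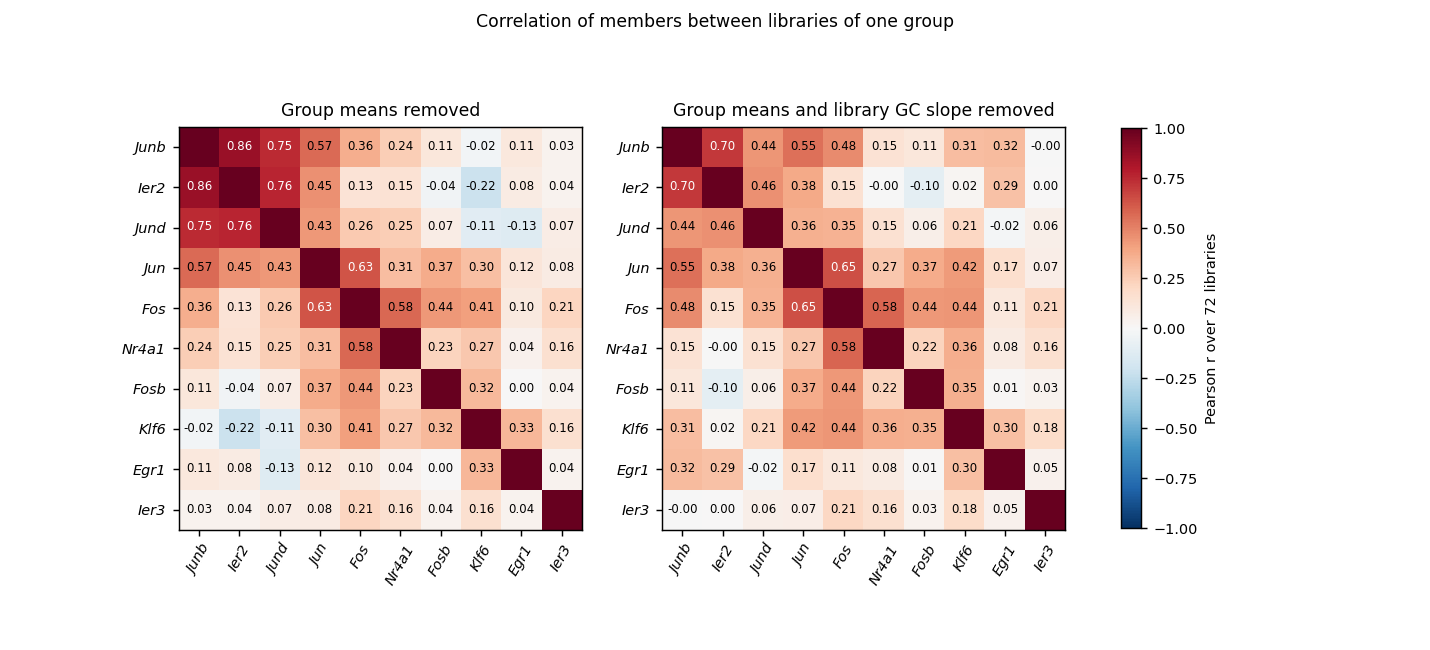
Pearson r (colour and printed value) between each pair of genes over the 72 libraries, after removing the mean of each group (left) and also the GC slope of the library (right). Junb, Jund and Ier2 correlate at 0.75 to 0.86 on the left and 0.44 to 0.70 on the right, and Fos with Jun at 0.63 and 0.65.

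The GC slope of the libraries moved with Junb, Jund and Ier2. Residual levels correlated with the slope at r = 0.72 for Junb, 0.76 for Jund and 0.74 for Ier2, whose transcripts have 62.6%, 67.1% and 60.9% GC. For the other 7 genes r lay between -0.31 (Klf6, 42.4% GC) and 0.28 (Jun, 55.5% GC), and the median absolute r over all genes tested was 0.24. After the slope was removed, Junb with Ier2 fell to r = 0.70, Jund with Ier2 to 0.46 and Junb with Jund to 0.44, whereas Fos with Jun was at 0.65 and Fos with Nr4a1 at 0.58. Correlation with library depth was weak for all 10, from -0.13 to 0.16. Libraries whose titles share a number resembled each other, so that the 72 are not fully independent. With each such pair averaged (36 points), the median r of the 45 pairs of genes was 0.0701. Junb with Ier2 was then at 0.91 and Fos with Jun at 0.62, while Fos with Nr4a1 was at 0.46 and Fos with Junb at 0.18.

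Genes outside the 10 with the most similar pattern were ranked by Pearson r with the mean of the 10 standardised residuals, over 72 libraries and 12189 genes with a mean of at least 1 CPM. The first 5 were Emilin1, an elastic fibre protein (0.58), Chpf, of chondroitin synthesis (0.555), Srf, the serum response factor that drives immediate early promoters (0.55), Midn (0.55) and Smad6, an inhibitor of BMP signalling (0.55). These r values share library, depth and base composition with the 10, and the 5 genes have 58.0% to 64.4% GC. Gene by gene, in a ranking added after the data were seen, Jun was nearest to Dusp1, a phosphatase of the MAP kinases and itself an immediate early gene (0.77), and Fos to Jun, Nr4a1, Atf3 and Rhob (0.63 to 0.53). Fosb was nearest to Dll4 (0.55) and Tspan15 (0.52), followed by Cd68, one of the Kupffer cell markers (0.51), Anxa2 and Ear2 (0.50 each). Nr4a1 was nearest to Actg1 (0.58), Klf6 to Ccdc80 (0.70), Ier3 to Icam1 (0.48) and Egr1 to Tdp1 (0.52). Jund was nearest to Nfkbib (0.87), and the 4 genes after it (Csnk1g2, Lzts2, Uqcrq and Romo1) were at 0.85 to 0.86. The libraries with the highest mean residual of the 10 were B6 male high library 6 (1.32 standard deviations) and DBA male high library 5 (1.30), and the lowest was B6 female control library 3 (-1.32).

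For the genes on which the results turn, Ensembl places Nr4a1 (GRCm38) on the plus strand at chr15:101254269-101274795, Fos at chr12:85473890-85477273 and Klf6 at chr13:5861482-5870394. Jund is a gene of a single exon at chr8:70698949-70700616, as is Jun on the minus strand at chr4:95049034-95052222. Fosb lies on the minus strand at chr7:19302696-19310051. The 250 bases shown for Nr4a1 lie inside the Ensembl gene, outside its annotated exons.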

How the data were processed

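Mouse liver RNA was sequenced in 72 libraries by the authors on a stranded protocol, which the labels name as total RNA in the extraction text and as polyA mRNA in another field. Reads were aligned to GRCm38.p5 and expected counts per Ensembl gene were deposited, per the labels' protocols. No aligner or counter is named in these sources. Per the submitters' processing notes the tools were edgeR and limma in R 3.4.3. Of 50308 lines 1 was incomplete and was left out, and symbols were matched for 50255 of 50307 genes. Of the deposited expected counts above 0, 9.56% were not whole and were rounded, and none of these belonged to the 10 genes. All 72 columns matched a sample, and 0 columns were left unmatched.

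Counts were filtered by group, scaled by TMM (factors of 0.84 to 1.14) and fitted in edgeR 4.0.16 (R 4.3.3) by its quasi-likelihood test, with a mean for each of the 12 groups. Log2 CPM used a prior count of 2. P-values were adjusted over all 14954 genes tested. The script was tested on simulated data. Alternatives used DESeq2 1.42.0, limma 3.58.1, other size factors, no filter, library weights, a GC covariate and each library left out. The GC covariate and the tests of 1 class against the other 3 were added after the data were seen, as were strain and sex on the low and high diets. The libraries were checked for duplicates: over 180 pairs within groups, chi-square per gene was at least 12.1 where sampling noise gives 1. Because the labels do not tie libraries to animals, p-values measure the spread between libraries, which may in part be technical.

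The 10 genes and the gene lists were chosen with earlier results of these data known. All 10 were named, with at most 4 genes of each list, those of lowest adjusted p for low isoleucine against control, and the 5 genes most alike. Atf3, Egr2 and the genes nearest to a single one of the 10 were named after their values were seen. Egr1 and Ier2 had no promoter sequence, and no position is printed for Egr1. The authors' fold change tables were not used here.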

Additional observations from a re-analysis of the deposited data

Results flagged for a closer look

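Single libraries stood apart from the other 5 of their group, by Dixon's test, in 5 of 120 groups of values, where chance gives about 1 in 20. Fos was at 0.924 CPM in library 3 of DBA females on low isoleucine, the highest there, and at 0.246 CPM in library 4 of DBA males on low isoleucine, the lowest. Fosb was at 0.0687 CPM in library 5 of DBA males on low isoleucine, where the other 5 libraries had no count. That flag carries no information, since any count above 0 beside 5 equal values passes the test, and the library held 2 counts. Junb was lowest in library 5 of B6 males on low isoleucine, at 3.03 CPM, and Ier3 highest in library 1 of B6 males on control, at 1.27 CPM.

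The diet effect differed between classes for 3 genes in a test of the difference. For Nr4a1 the effect in B6 females minus the mean of the other 3 classes was 1.95 for low against control (edgeR adjusted p = 0.0427) and -2.64 for high against low (adjusted p = 0.00724). For high against low in B6 males minus the mean of the other 3 classes, Fos was at 1.76 (adjusted p = 0.0107), Jund at 1.63 (adjusted p = 0.012) and Nr4a1 at 2.48 (adjusted p = 0.00216). These tests share libraries with each other. As given above, the Jund difference was lost with the GC covariate. The Nr4a1 difference for low against control was lost with the title number block and on leaving out any of 20 of 48 libraries. The B6 male value of Nr4a1 includes its fall in B6 females.

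In other pairs of classes every library of one class lay on the opposite side of its reference mean from every library of the other, and the difference was not tested. For low against control the log2 fold changes differed by 1.19 for Jund between DBA females and B6 males and by 0.86 for Klf6 between DBA males and B6 males. For high against low Jund in B6 males differed by 1.93 from B6 females and by 1.98 from DBA females.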

How the results depend on the processing

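Of 34 gene results past the threshold, all kept their direction under each alternative that was run. With DESeq2 or with other size factors 0 lost significance, with the GC covariate 3, with library weights 4, without the filter 5, with counts summed by title number 9 and with the title number as a replicate block 15. The block rests on numbers that libraries share within a group, in 36 pairs the labels do not explain (estimated correlation 0.244), so it pairs no libraries across groups. For the mean of the classes it left 0 of the 10 genes called for low against control and 0 for high against low, where the fit without it called 2 and 2. For high against low in B6 males it left 1 of 3, Fos, and for sex on the control diet 1 of 2. For strain on the control diet 3 were called with it, as without it. Its results for strain and sex on the low and high diets are not given gene by gene. Nor are those for high against low in 1 class against the other 3. Some calls printed above for these comparisons were lost with the block, so each of them is to be read with that limit. Without the filter 1 gene was called in each of low against control, high against low and sex, and with summed counts 1 for low against control. DESeq2 called 4 for high against low, 6 in B6 males and 1 in the interaction terms. The GC covariate gave 1 in the interactions and 6 for strain. Leaving out each library in turn gave 1 to 3 called genes for low against control and 1 to 2 in B6 females. As the mean of the classes it gave 0 for high against control and 1 to 4 for high against low. For high against low it gave 1 to 2 in B6 females and 2 to 5 in B6 males. For high against control in B6 males Nr4a1 passed without library 1 of the controls (1.67, adjusted p = 0.0468). Interactions ranged from 0 to 1, strain from 2 to 4 and sex from 1 to 3. Fosb, with 390 counts in all, is limited by depth.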
